A study of Mus musculus with 6 samples.

Results

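The genes of apolipoproteins and chylomicron assembly were followed in the colon of mice that lack HDAC1 and HDAC2 in intestinal epithelial cells (IEC). The set holds 10 genes, Apoa1, Apoa4, Apob, Apoc1, Apoc2, Apoc3, Apoe, Mttp, Fabp1 and Fabp2, chosen by name as genes of fat absorption. Every probe set that carries the symbol of one of them alone was kept, which gave 17 of 45037 probe sets and 10 of 18193 named genes. Total RNA of the colon was measured on Affymetrix mouse arrays, with 3 arrays of control mice that the labels call wild type and 3 of HDAC1/2 deficient mice. The sample titles give a replicate number for each array, and the methods describe RNA of 3 mice per group. The deficient mice carried floxed Hdac1 and Hdac2 alleles and the villin-Cre transgene, whose promoter is active in the epithelium of small and large intestine. Mice of both groups were 4 months old by the study's description, ate a normal diet and received no treatment. The labels give the source as colon epithelium, whereas the methods describe RNA of the colon. The deletion is confined to epithelial cells, while the RNA also comes from immune, muscle and other cells. The study's own description gives HDAC2 loss as patchy in these mice.

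Absorbed fat leaves the enterocyte as chylomicrons, large lipoprotein particles that enter the lymph. Fatty acid binding proteins such as FABP1 and FABP2 carry fatty acids through the cytosol. The microsomal triglyceride transfer protein, encoded by Mttp, loads lipid onto apolipoprotein B in the endoplasmic reticulum. Exchangeable apolipoproteins of the A, C and E families then coat the particle and steer its metabolism in plasma. The machinery is best known from the small intestine and, for several members, the liver. The colon is not a main site of fat absorption, and macrophages are a known further source of Apoe and Apoc1 transcripts.

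Values are log2 signals after RMA normalization, on which a difference of 1 is a doubling. Each probe set was compared between the groups with limma, and a call means a Benjamini-Hochberg adjusted p under 0.05 over all 45037 probe sets. A gene is given by its brightest probe set, and differences are deficient minus control. Hdac1, one of the deleted genes, was at 10.60, 10.53 and 10.56 in control and 9.27, 9.21 and 9.32 in deficient colon, all deficient arrays being lower, as their labels would have it. The 3 probe sets of Hdac2 differed by -0.07 to 0.05 with no call, and whether their probes lie in the deleted part of the gene is not given in the sources used here. Arrays of one group correlated at 0.9984 or more over all probe sets, and no array stood apart. Calls were frequent, since 50.4% of all named genes passed in one direction or the other. Xist, the RNA that silences an X chromosome in females, was at 12.88, 12.85 and 12.81 in control and 12.01, 11.99 and 12.06 in deficient colon. The Y-linked Eif2s3y was at 3.84, 4.31 and 4.11 in control and 8.32, 8.49 and 8.22 in deficient colon. Every deficient array thus carried both signals, a combination that RNA of 1 normal mouse would not show, and whether RNA of several mice was pooled is not given in the sources used here. The n, SD and p-values below therefore refer to arrays and may not measure the spread between single mice. How far sex contributes to the differences below cannot be told apart from genotype.

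Of the 10 genes, 8 were higher in HDAC1/2 deficient colon, 0 were lower and 2, Apoa4 and Apoc3, did not pass. Among all named genes 21.9% were higher and 28.4% lower by the same rule. More than 2-fold rises were found in 5 members, Apoc2, Mttp, Fabp1, Apoc1 and Apoe, against 2.25% of all named genes. The groups did not overlap, with deficient above control, in 7 of the 10 genes and in 26.9% of all named genes. The median difference of the 10 genes was 0.81 on the log2 scale, compared with -0.02 over all named genes. Falls of more than 2-fold and groups with deficient below control were found in 0 members and in 1.82% and 34.1% of all named genes. The rises were of unequal size. Apoc2, Mttp and Fabp1 rose by 3.41 to 4.22, from control levels near background in Mttp and Fabp1, Apoc1 and Apoe rose by 1.49 and 1.13, and the 3 others by under 0.5. As the RNA is from bulk tissue, a change in the number of cells that express a gene and a change in RNA per cell cannot be told apart.

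Counted by probe set, 12 of the 17 were higher and 1, of Apoa4, was lower, while 18.8% of all 45037 probe sets were higher and 21.0% lower (39.8% in all). Rises of more than 2-fold were found in 7 of the 17 and in 1.56% of all probe sets, and falls of that size in 0 and in 1.23%. The groups were apart with deficient above control in 12 and below it in 1, compared with 23.8% and 26.2% of all probe sets.

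**Figure D1:**
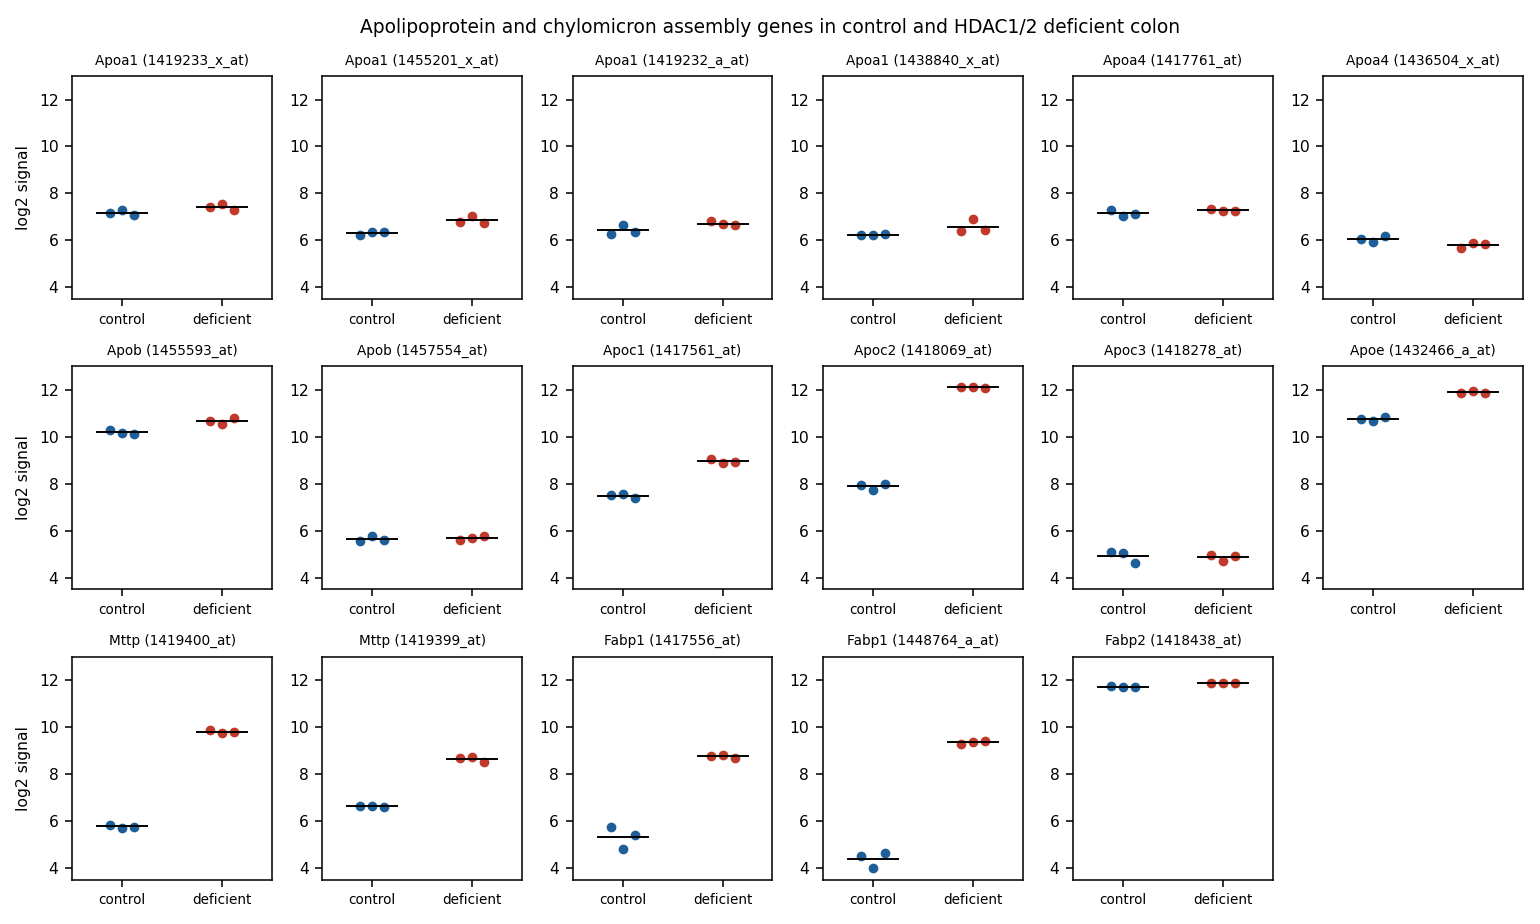
Log2 signal (vertical axis) of the 17 probe sets of the 10 genes in control (blue) and HDAC1/2 deficient colon (red), with 1 point per array, 3 per group, and the mean as a bar. Apoc2, Mttp and Fabp1 are far apart between the groups, Apoc1 and Apoe less so, and Apoa4 and Apoc3 lie at similar levels.

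Promoters of the 3 genes with the largest rises are shown with those of Fabp2 and Apoa4, 2 genes that changed little, so that genes of unlike response can be compared. Each is the 250 bases before the annotated start, from RefSeq on GRCm38.p6, written 5' to 3' on the strand of the gene. The windows are chr7:19677942-19678191, minus strand for Apoc2, chr3:138143419-138143668, minus strand for Mttp, chr6:71199629-71199878, plus strand for Fabp1, chr3:122894822-122895071, plus strand for Fabp2 and chr9:46240594-46240843, plus strand for Apoa4. Capitals mark matches, on either strand, to TATAAA (the TATA box), CAAAGTCCA (a form bound by HNF4), GATAAG (for factors of the GATA family) or TTTATNG (for CDX factors), where N is any base.
Apoc2: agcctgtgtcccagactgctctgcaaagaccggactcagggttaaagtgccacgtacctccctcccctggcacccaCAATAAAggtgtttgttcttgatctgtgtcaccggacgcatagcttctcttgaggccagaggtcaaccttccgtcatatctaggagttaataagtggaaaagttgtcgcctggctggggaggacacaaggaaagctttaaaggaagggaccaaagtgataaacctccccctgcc
Mttp: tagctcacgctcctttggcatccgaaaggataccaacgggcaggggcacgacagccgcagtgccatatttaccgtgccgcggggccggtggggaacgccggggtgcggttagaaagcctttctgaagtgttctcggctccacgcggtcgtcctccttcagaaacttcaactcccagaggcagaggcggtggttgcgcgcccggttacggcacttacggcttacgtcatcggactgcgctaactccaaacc
Fabp1: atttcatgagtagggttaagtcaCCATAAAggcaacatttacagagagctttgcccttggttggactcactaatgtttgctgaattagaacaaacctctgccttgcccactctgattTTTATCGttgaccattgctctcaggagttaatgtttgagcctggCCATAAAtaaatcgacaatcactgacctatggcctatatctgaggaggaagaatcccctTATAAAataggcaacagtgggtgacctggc
Fabp2: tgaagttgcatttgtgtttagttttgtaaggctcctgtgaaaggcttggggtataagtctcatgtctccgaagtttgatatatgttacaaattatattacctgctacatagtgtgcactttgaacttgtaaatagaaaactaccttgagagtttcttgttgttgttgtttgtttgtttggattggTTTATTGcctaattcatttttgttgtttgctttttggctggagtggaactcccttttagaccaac
Apoa4: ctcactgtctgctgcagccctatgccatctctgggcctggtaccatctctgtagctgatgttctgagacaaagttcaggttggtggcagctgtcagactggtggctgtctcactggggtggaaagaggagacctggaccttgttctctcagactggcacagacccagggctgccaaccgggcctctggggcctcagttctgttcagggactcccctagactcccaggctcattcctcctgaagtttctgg

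The Fabp1 window held a TATAAA match starting 30 bases before the start and 3 TTTATNG matches, the nearest 89 bases before it. The Apoc2 window held 1 TTTATNG match, starting 174 bases before the start on the opposite strand, and the Fabp2 window 1, starting 65 bases before it. The windows of Mttp and Apoa4 held no match to these letters. Promoters in the table, of 300 bases that include 50 after the start, covered 8 of the 10 genes with 10 starts, Apoc1 and Apoc3 having no entry. The motif TTTATNG was found in 4 of the 8 genes (Apob, Apoc2, Fabp1 and Fabp2). Counted by start this was 4 of 10, against 10.9% of all 32851 promoters. In Apob the TTTATNG match, on the opposite strand, and the TATAAA match share the same bases, starting 61 and 60 bases before the start. TATAAA was found in 3 genes and 3 of the 10 starts (Apob, Apoe and Fabp1) and in 13.6% of all promoters. GATAAG was found in 2 genes and 2 starts (Apoa1 and Apob) and in 7.44% of all, and CAAAGTCCA in 0 and in 0.475% of all. Genes with a TTTATNG match thus included both large rises (Apoc2, Fabp1) and small ones (Fabp2, and Apob in its TATAAA stretch). These matches are a description of letters and were not tested as binding sites.

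The genes of the assembly step differed in the size of their change. Mttp, whose product transfers triglyceride to the nascent particle, was at 5.84, 5.69 and 5.76 in control and 9.86, 9.73 and 9.79 in deficient colon (1419400_at). All deficient arrays were far above all control arrays, with a gap of 3.90 between the groups. The difference was 4.03 (standard error 0.056, limma adjusted p = 1.46e-08), a 16.4-fold rise from control arrays that lay below 6.26, the 40th percentile of mean signal over all probe sets. Its other probe set, 1419399_at, was at 6.63, 6.65 and 6.59 against 8.68, 8.71 and 8.53, also without overlap. This probe set gave a smaller rise of 2.02, with a 95% interval of 1.88 to 2.15 against 3.90 to 4.16 for the first. The protein P4hb encodes, a disulfide isomerase that forms a complex with the transfer protein, had transcripts that rose by 0.45, from 13.06 ± 0.006 to 13.52 ± 0.029 (SD, n = 3 each); this gene was named after its values were seen.

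Apob, which encodes the structural protein of chylomicrons, was at 10.27, 10.18 and 10.10 in control and 10.69, 10.53 and 10.80 in deficient colon (1455593_at). The groups did not overlap, although the gap between them was only 0.26. The rise of 0.49 (standard error 0.079, limma adjusted p = 0.00176) was 1.40-fold. The dimmer probe set 1457554_at gave no call, at 5.56, 5.78 and 5.61 against 5.62, 5.69 and 5.77, with a 95% interval of -0.12 to 0.21. Averaged over both probe sets the rise of Apob was 0.26 (limma adjusted p = 0.00497). Apobec1, the enzyme that edits Apob mRNA to the short intestinal form, rose by 0.34 and its cofactor gene A1cf, at 6.33 and 6.35, did not pass; these 2 genes were named after their values were seen. The array does not separate edited from unedited Apob transcripts.

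The fatty acid binding proteins showed a large rise in one gene and a small one in the other. Fabp1, which encodes the liver-type protein, was at 5.76, 4.82 and 5.41 in control and 8.78, 8.79 and 8.67 in deficient colon (1417556_at). Its second probe set, 1448764_a_at, was at 4.49, 4.0 and 4.63 against 9.28, 9.35 and 9.40. All deficient arrays were above all control arrays in both probe sets, while the control arrays were dim and spread more widely (SD 0.47 and 0.33) than the deficient arrays (SD 0.065 and 0.060). The rise was 3.41 (standard error 0.21, limma adjusted p = 1.18e-05), or 10.7-fold, by the first and 4.97 (standard error 0.15, limma adjusted p = 4.24e-07), or 31.3-fold, by the second. The control means of both lay below the same 40th percentile (6.26), where signals are close to background and a fold change is not well measured.

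Fabp2, which encodes the intestinal-type protein, was at 11.74, 11.69 and 11.69 in control and 11.87, 11.87 and 11.86 in deficient colon. The groups did not overlap, but the rise was 0.16 (standard error 0.040, limma adjusted p = 0.0152), or 1.12-fold. Without the first deficient array the limma adjusted p was 0.0547. Fabp6, the ileal bile acid binding protein and no member of the set, rose by 4.49, from 8.91 ± 0.089 to 13.41 ± 0.001 (SD, n = 3 each). Fabp5, an epidermal-type gene, rose by 0.20. Fabp4, the adipocyte gene, differed by -0.07 with overlapping groups and no call in its brightest probe set. Its 4 probe sets ran from -0.21 to 0.31, and 1 of them was called higher. Fabp5 and Fabp4 were named after their values were seen.

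**Figure D2:**
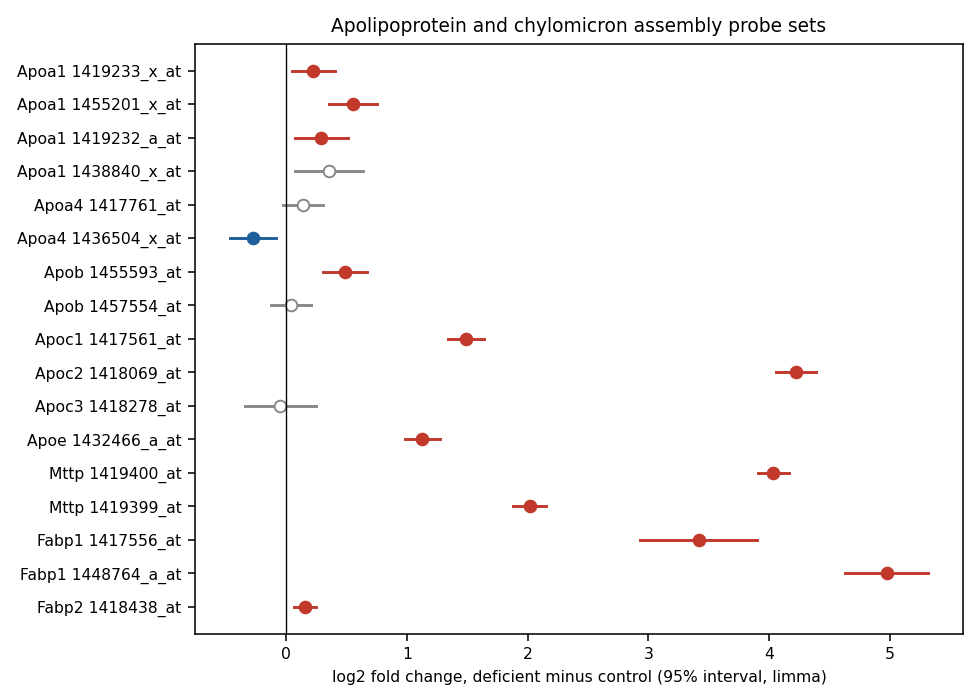
Difference in log2 signal, HDAC1/2 deficient minus control colon (horizontal axis), with its 95% interval from limma for the 17 probe sets. Red points were called higher, the blue point lower and open grey points gave no call; the probe sets of Mttp and of Fabp1 differ in size, and those of Apoa4 in direction (0.14 and -0.27).

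Apoc2, which encodes the cofactor that activates lipoprotein lipase, had the largest rise of the set by the brightest probe sets, while the dimmer probe set of Fabp1 gave a larger one (4.97). Its log2 signal was 7.95, 7.72 and 7.98 in control and 12.12, 12.12 and 12.07 in deficient colon. Deficient arrays lay 4.09 above the highest control array, and the difference of 4.22 (standard error 0.072, limma adjusted p = 3.22e-08) was an 18.6-fold rise. Transcripts of Lpl, the lipase itself, rose by 0.80, from a mean of 9.58 to one of 10.39.

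Apoc1 and Apoe rose more than 2-fold. Apoc1, whose product is a small apolipoprotein that inhibits lipase activity and particle uptake, was at 7.51, 7.55 and 7.37 in control and 9.06, 8.90 and 8.94 in deficient colon. Apoe, which encodes a ligand of the LDL receptor family, was at 10.77, 10.66 and 10.86 in control and 11.86, 11.96 and 11.88 in deficient colon. Neither gene had overlapping groups. The rises were 1.49 (standard error 0.064, limma adjusted p = 2.43e-06) and 1.13 (standard error 0.061, limma adjusted p = 6.72e-06), or 2.81-fold and 2.19-fold. Of 15 macrophage marker genes, 10 were higher and 0 lower, with a median difference of 0.48. Among all named genes 21.9% were higher and 28.4% lower. The summed signal of the macrophage genes ran from 12505 to 12892 in control and from 19607 to 19884 in deficient colon. C1qa, C1qb and Csf1r, which encode complement components and the receptor of a macrophage growth factor, had the largest rises, at 1.33, 1.19 and 1.12. Lyz2 and Cd14 rose by 0.48 and 0.30, and Mertk and Cd163 gave no call. Lyz2, Cd14, Mertk and Cd163 were named after their values were seen. Whether macrophage RNA contributes to the rises of Apoc1, Apoe or Apoc2 was not tested.

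Apoc2, Apoc1 and Apoe neighbour each other in one gene cluster on chromosome 7, in the order Apoc2, Apoc4, Apoc1 and Apoe in the RefSeq annotation. Apoc4, the fourth gene of the cluster, lies between Apoc2 and Apoc1 and gave no call, at 6.28, 6.38 and 6.17 in control and 6.35, 6.16 and 6.21 in deficient colon (95% interval -0.20 to 0.13). The mean of Apoc4 in control colon, 6.28, was close to the 40th percentile of signal (6.26). Beyond the cluster on the side of Apoe, Tomm40 rose by 0.71 and Nectin2 by 0.82, and on the side of Apoc2, Clptm1 differed by 0.01 (95% interval -0.09 to 0.11). The flanking genes were chosen after the values of the cluster were seen. Differences within the cluster thus ran from -0.03 to 4.22.

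The second cluster, on chromosome 9, holds Apoa1, Apoc3, Apoa4 and Apoa5 and showed little change. Apoa1, which encodes the main protein of HDL and also a chylomicron protein, was at 7.18, 7.28 and 7.10 in control and 7.44, 7.53 and 7.28 in deficient colon in its brightest probe set, 1419233_x_at. These groups overlapped, and the rise of 0.23 (standard error 0.075) had a limma adjusted p = 0.0458. The call was lost when control array 1 or 3 or deficient array 1 or 2 was left out (limma adjusted p from 0.103 to 0.136). Of the 4 Apoa1 probe sets 3 were called higher, by 0.23 to 0.55, and the last differed by 0.35 (adjusted p = 0.0509). All 4 are of types (names ending in _a_at or _x_at) whose probes can match more than 1 transcript, of the same gene or of others. The Apoe probe set, 1432466_a_at, is of these types too.

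Apoa4, whose product is made by enterocytes during fat absorption, was at 7.29, 7.04 and 7.11 in control and 7.35, 7.25 and 7.25 in deficient colon (1417761_at). The groups overlapped and the difference of 0.14 (95% interval -0.02 to 0.30, limma adjusted p = 0.162) gave no call. Its probe set 1436504_x_at was at 6.07, 5.92 and 6.19 against 5.67, 5.87 and 5.83, a difference of -0.27 with limma adjusted p = 0.0324 and no overlap. This call was lost by the methods' t-test and when control array 1 or 3 or deficient array 1 or 3 was left out, and its signal lay below the 40th percentile. Apoc3, which encodes an inhibitor of lipoprotein lipase, was at 5.07, 5.03 and 4.63 in control and 4.95, 4.70 and 4.94 in deficient colon (limma adjusted p = 0.81). The groups overlapped, and the 95% interval of the difference ran from -0.34 to 0.25. Apoc3 lay below the 40th percentile (6.26) on all arrays, at means of 4.91 and 4.86, where signals are close to background and a change is not well measured. Apoa5, which is no member, was at 7.18 ± 0.076 and 7.29 ± 0.085 (SD, n = 3 each), also with no call. Of the genes that flank this cluster, Pafah1b2 rose by 0.45 and Zpr1 by 0.36, more than the brightest probe sets of the apolipoprotein genes between them. Sik3 and Bud13, the other flanking genes, differed by -0.02 and 0.08 with no call. These flanking genes were also chosen after the values of the cluster were seen.

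**Figure D3:**
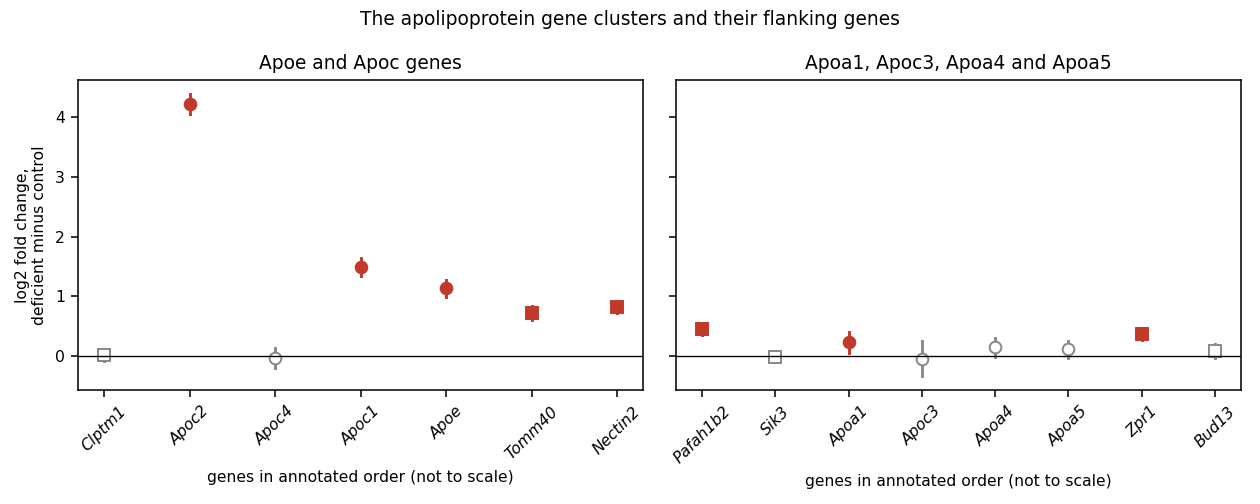
Difference in log2 signal, HDAC1/2 deficient minus control colon (vertical axis, bars are 95% intervals), of the genes of the 2 apolipoprotein clusters (circles) and their flanking genes (squares) in annotated order. Filled red symbols passed the test and open symbols did not; Apoc2 reaches 4.22 beside Apoc4 at -0.03, and the Apoa1, Apoc3, Apoa4 and Apoa5 genes lie between -0.05 and 0.23.

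Other genes of fat absorption and lipoprotein metabolism were counted in 5 lists. These include a list of plasma lipid transfer genes and a list of 17 transcription factors, which holds 8 of the 15 lower calls below. Of 78 measured genes, 36 were higher, 15 lower and 27 gave no call, against 21.9% higher and 28.4% lower among all named genes. Their median difference was 0.10. Of 16 genes of fat digestion and uptake, 11 were higher and 2 lower, with a median of 0.26. The largest rises were in Cel (4.85), the bile salt-stimulated lipase, Fabp6 (4.49), Pnliprp1 (3.98), a pancreatic lipase-related gene, and Clps (1.92), which encodes colipase. Cel, Pnliprp1 and Clps are genes of the pancreatic acinar cell. Of 13 acinar markers, 12 were higher and 1, Cela1, lower, with rises of 7.40 in Cela2a, 7.24 in Cpb1 and 5.64 in Cpa1. The summed acinar signal ran from 13585 to 13941 in control and from 40149 to 41439 in deficient colon. Cela1, at a mean of 13.60 in control and 12.79 in deficient colon, makes up most of the control sum. The part of acinar RNA in the result was not tested. Cd36, a fatty acid transporter gene, and Slc27a2 were the genes of this list that fell, by 0.25 and 0.97, and were named after their values were seen.

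Of 14 genes of triglyceride and cholesteryl ester synthesis, 6 were higher, 2 lower and 6 gave no call. Among all named genes 21.9% were higher and 28.4% lower. Agpat2, an acyltransferase of phosphatidic acid synthesis, was at 10.67, 10.54 and 10.63 in control and 11.74, 11.77 and 11.75 in deficient colon, a rise of 1.14. Gpat3 and Lpin2, which act in the same glycerol phosphate route, rose by 0.74 and 0.71. Acsl3, an acyl-CoA synthetase of lipid droplets, was at 11.63, 11.64 and 11.59 in control and 10.50, 10.53 and 10.58 in deficient colon and fell by 1.09. Mogat2, the monoacylglycerol acyltransferase of the enterocyte, was named after its values were seen and differed by 0.18 (adjusted p = 0.112).

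Of 16 genes of lipid droplets and chylomicron export, 8 were higher, 3 lower and 5 gave no call. Among all named genes 21.9% were higher and 28.4% lower. Tm6sf2, whose product acts in the lipidation of particles that hold apolipoprotein B, rose by 1.22, from 8.80 ± 0.068 to 10.03 ± 0.041 (SD, n = 3 each). Plin3, a droplet coat gene, and Sec23b, a component of COPII vesicles, rose by 0.61 and 0.60. Plin2, another droplet coat gene, was at 12.58, 12.57 and 12.52 in control and 11.78, 11.83 and 11.76 in deficient colon, a difference of -0.77. Sar1b, the GTPase of chylomicron vesicles, was named after its values were seen and gave no call (0.06, adjusted p = 0.366). Of 15 other apolipoprotein and plasma lipid transfer genes, 5 were higher, 0 lower and 10 gave no call. The 4 largest rises were in Lpl (0.80), Lipg (0.76), which encodes endothelial lipase, Apod (0.66), a lipocalin gene, and Clu (0.45), which encodes clusterin. Apoa2, Apoh and Apom, whose products are mainly of liver origin and which were named after their values were seen, differed by -0.01 to 0.04.

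**Figure D4:**
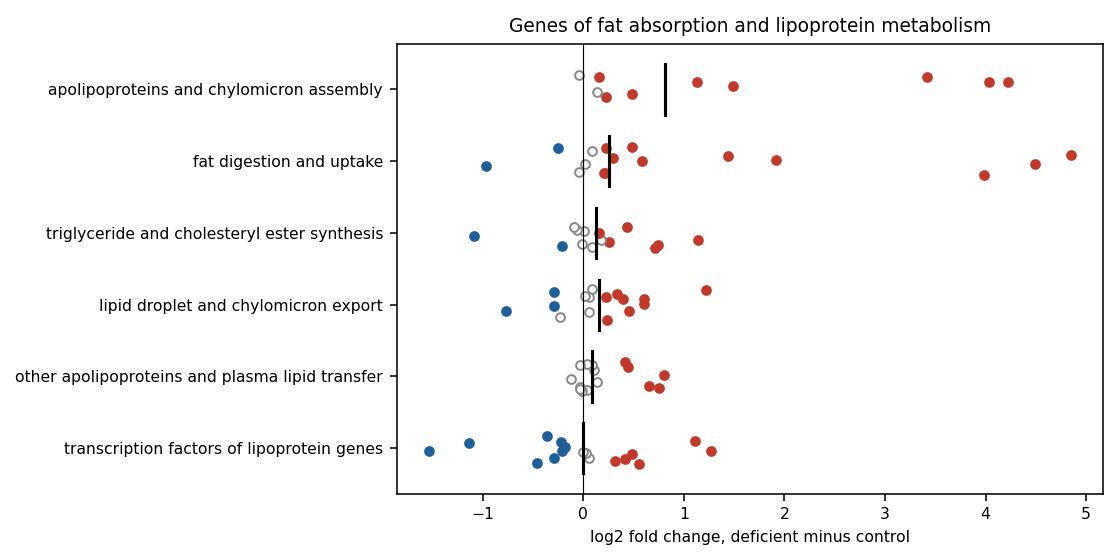
Log2 difference, HDAC1/2 deficient minus control colon (horizontal axis), of each gene of the set and of 5 lists of fat absorption and lipoprotein metabolism, 1 point per gene at a random height within its row. Red points were called higher, blue lower, open points gave no call, and the black bar is the median, 0.81 for the 10 genes and between -0.002 and 0.26 for the lists.

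Transcription factors known to act on these genes changed in both directions. Of 17, 6 were higher, 8 lower and 3 gave no call, against 21.9% higher and 28.4% lower among all named genes. Hnf4g was at 8.14, 8.16 and 8.16 in control and 7.01, 6.84 and 7.20 in deficient colon, a difference of -1.14 (limma adjusted p = 3.12e-05). Hnf4a, the other HNF4 gene of the gut, was at 13.43, 13.42 and 13.43 against 13.25, 13.28 and 13.24 and fell by 0.18 (limma adjusted p = 0.00767). Ppargc1a, a coactivator of oxidative metabolism, fell the most, by 1.53. In contrast, Nr1h4, which encodes the bile acid receptor FXR, rose by 1.27, Prdm1, a repressor known from the neonatal gut, by 1.12, the intestinal homeobox gene Cdx2 by 0.56 and Creb3l3, an activator of apolipoprotein genes, by 0.48. Gata4, a factor of the proximal small intestine, was at 6.57, 6.59 and 6.11 in control and 6.58, 6.47 and 6.38 in deficient colon, with overlap and no call.

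Markers of the cells that express apolipoproteins did not all move with the set. Small intestinal enterocyte genes were split, 5 of 14 higher, 5 lower and 4 with no call (median 0.02). Among all named genes 21.9% were higher and 28.4% lower. Alpi, the intestinal alkaline phosphatase gene, rose by 5.08, from 7.34, 7.16 and 7.19 to 12.35, 12.34 and 12.26, and Adh6a rose by 2.00. The peptide transporter gene Slc15a1 fell by 2.56, from 10.96 ± 0.097 to 8.40 ± 0.23 (SD, n = 3 each). The lactase gene Lct stayed dim on all arrays, at means of 4.79 and 4.78. Of the genes that fell, Mep1a, Slc5a1 and Mgam were, like Slc15a1, already bright in control colon (12.06, 11.73 and 11.87). Bright in control colon, such genes do not mark small intestine alone. Mep1b, which rose, was bright there too (11.78), while Slc10a2 rose by 1.40 from 5.24. Mep1a, Slc5a1, Mgam, Mep1b and Slc10a2 were named after their values were seen. Sis, which the paper reports as raised in colon by qPCR and staining, was not analysed here. The summed signal of the 14 enterocyte genes ran from 17915 to 18108 in control and from 19638 to 20156 in deficient colon. Of 12 colonocyte genes, 3 were higher and 6 lower, with differences of -1.81 in Slc20a1, -1.71 in Scnn1g and -0.75 in Hsd11b2, and a summed signal from 112033 to 112796 in control and from 102950 to 104443 in deficient colon. Of 8 pan-epithelial genes, 4 were higher, among them Krt20 (0.67) and Vil1 (0.35), and 1, Epcam (-0.16), was lower. Their summed signal ran from 124017 to 125443 in control and from 131909 to 133712 in deficient colon. The part of these cell types in the rises of Mttp, Fabp1 and Apoc2 was not tested.

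Hepatocyte genes were 3 of 14 higher, 1 lower and 10 with no call (median 0.01). Among all named genes 21.9% were higher and 28.4% lower. Whether liver RNA contributes to the apolipoprotein signals was not tested. Albumin (Alb) was at 7.80, 7.77 and 7.77 in control and 7.80, 7.78 and 7.85 in deficient colon, and the fibrinogen genes Fga, Fgb and Fgg lay between 3.95 and 5.44 on all 6 arrays, below the 40th percentile. Hpx and Cyp2e1 rose by 1.29 and 0.71, and Ttr fell by 3.13, which makes the summed signal lower in deficient colon (2820 to 2943 against 7545 to 8129). Adipocyte genes gave 1 higher, Retn (0.24), and 1 lower of 7, Pck1 (-1.72), which is also an epithelial gene. Lipe differed by 0.19 with no call, and Adipoq, which defines fat cells, was at 8.62 and 8.70 (limma adjusted p = 0.186). Their summed signal ran from 4471 to 4582 in control and from 2520 to 2587 in deficient colon. The lower sum comes from Pck1, at means of 11.47 and 9.75. Sex-linked genes gave 3 higher, Eif2s3y, Kdm5d and Uty, and 1 lower, Xist, of 5.

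**Figure D5:**
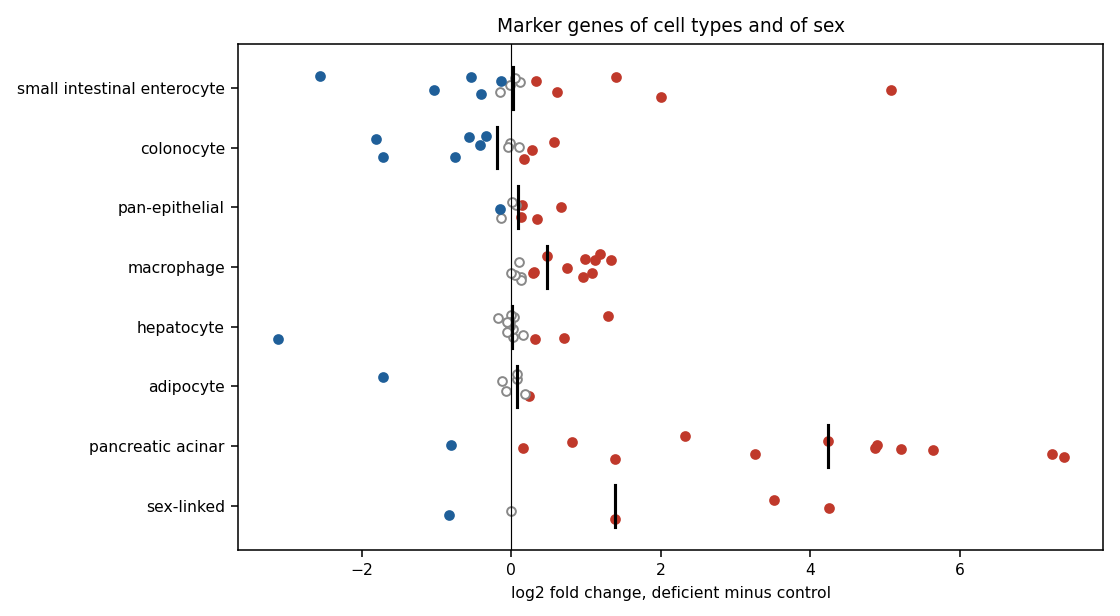
Log2 difference, HDAC1/2 deficient minus control colon (horizontal axis), of marker genes of 7 cell types and of sex-linked genes, 1 point per gene, with the same colors as in the plot of the 5 pathway lists. The median, a black bar, is 0.48 for macrophage, 4.24 for pancreatic acinar, 0.02 for small intestinal enterocyte and 0.01 for hepatocyte genes.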

How the data were processed

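The methods describe colon RNA of 3 control and 3 HDAC1/2 deficient mice, measured on Affymetrix mouse genome arrays. Whether each array holds the RNA of 1 mouse is not given in the sources used here. The table the authors deposited holds log2 values, made with the RMA algorithm (background correction and normalization across arrays) in Flexarray. Groups and numbers came from the sample titles. After 64 control probe sets were left out, 45037 entered a two-sided limma 3.58.1 comparison (R 4.3.3, lmFit with eBayes, no covariate, Benjamini-Hochberg over all). Symbols came from the platform annotation, in which 34945 probe sets have 1 symbol, 932 several and 9160 none. The brightest probe set, by the mean of the 6 arrays, stands for a gene.

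The genes, lists and tests were chosen with earlier results of these data known. Named besides the 10 genes are the 4 largest called changes per pathway list, Hnf4a, Hnf4g, Cdx2, Gata4 and Creb3l3, the 3 largest changes per marker list, markers that show which are dim, Hdac1 and Hdac2. Others are said to be chosen after their values were seen.

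Same-numbered arrays did not deviate together (r = 0.10, 0.06 and -0.03 over probe sets). Alternatives were the methods' t-test, other normalizations, a filter below the 40th percentile of signal, trend and robust eBayes, array weights, the replicate number as a block, other probe set rules and leaving out each array. The fit was tested on simulated data. P-values measure the spread of 3 arrays per group, which may be technical if RNA was pooled, and the number of arrays limits the precision. Summed signals add linear values of each gene's brightest probe set. No scan dates or batches are given in the sources used here, so no batch was tested. Several listed genes, among them Sis, and the proteins of the 10 genes were not analysed here. Figures were drawn with matplotlib 3.10.9.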

Additional observations from a re-analysis of the deposited data

How the results depend on the processing

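In the 16 settings tried, Apob, Apoc1, Apoc2, Apoe, Mttp and Fabp1 stayed higher and past the test wherever they were measured, and no member gene was called lower. The number of member genes higher was 6 to 8 (8 as reported). Pathway genes higher numbered 28 to 40 (36 as reported) and lower 11 to 17 (15). Member probe sets higher numbered 7 to 13 over the settings, 7 without probe sets of shared sequence, which leaves fewer to count, and 10 to 12 with 1 array left out (12 as reported). Member probe sets lower numbered 0 by the methods' t-test, whether or not its p was adjusted, without probe sets below the 40th percentile and without those of shared sequence, and 0 to 1 with 1 array left out (0 without control array 1 or 3 or deficient array 1 or 3). The cause of the change under the methods' t-test was not tested.

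The rise of Mttp was 3.03, of Fabp1 4.19 and of Apoa1 0.36 as the mean of all probe sets. Apoa1 did not pass the methods' t-test or with any one of 4 arrays left out, and Fabp2 did not without deficient array 1. Apoa4 was lower by the mean of its probe sets (-0.07, limma adjusted p = 0.366) and passed without control array 1 (0.21, limma adjusted p = 0.0285, with a range over settings of 0.0285 to 0.389). Apoc3, which passed in no setting, differed by -0.19 to 0.04 with 1 array left out, being above 0 without control array 1 (0.04), control array 2 (0.01) or deficient array 2 (0.04). With the replicate number as a block, 8 member genes, 11 member probe sets and 36 pathway genes were higher and 0, 1 and 14 lower, and no call of a member gene changed. Same-numbered arrays shared only a number (4 of 6 arrays correlated best with their own number, which is a hint from the data and not the design).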
